A study of Mus musculus with 12 samples.

Results

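The red cell membrane skeleton and its main anchor in the membrane were followed through 8 genes in G1E-ER4 cells, a mouse erythroid line. The genes were Sptb, Ank1, Add1, Add2, Add3, Dmtn, Tmod1 and Slc4a1, taken by symbol from the 32699 genes of the files. All libraries came from this line, which carries GATA-1 fused to the estrogen receptor (GATA-1ER) and was grown with erythropoietin, stem cell factor and puromycin. The 4 groups of 3 libraries were Ctrl, left untreated, TMG, exposed for 30 h to Thiamet-G at 10 µM, E2, exposed for as long to β-estradiol at 1 µM, and TMG_E2, exposed to both. E2 switches on GATA-1ER and red cell differentiation, and TMG inhibits OGA, the enzyme that takes O-GlcNAc off proteins. The study asked whether disturbed O-GlcNAc turnover alters the erythroid transcription network during this differentiation. The Ctrl cells also carry GATA-1ER, and no vehicle is named for them. A single line was used, and the labels do not tell whether replicates were independent cultures. The p-values therefore reflect spread among these 12 libraries, part or all of which could be technical.

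Spectrin is a long flexible rod that forms a mesh under the red cell membrane. Ankyrin ties spectrin to band 3, the anion exchanger that trades bicarbonate for chloride, and a second set of links forms where spectrin meets short actin filaments. At these junctions adducin caps the fast-growing filament end and tropomodulin the slow-growing end, while dematin bundles actin. Inherited loss of spectrin, ankyrin or band 3 makes red cells round and fragile.

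The libraries held 17589380 to 23178721 expected counts each, so that 3 counts, the limit that a count of 0 allows, correspond to 0.129 to 0.171 CPM in a library (counts scaled to a common library total, here by library size alone and for the gene levels below also by TMM), counting error only. The labels call the cells embryonic stem cells, but Pou5f1, Sox2 and Zfp42 had 0 counts in each of the 12 libraries and Nanog reached at most 0.281 CPM. The summed level of 6 erythroid markers was 1203 to 1306 CPM in the libraries without E2 and 22950 to 26390 CPM in those with it, where Hbb-bs alone made up 18530 to 21800 CPM. In bulk RNA, fewer cells of a type and less RNA per cell cannot be told apart. Markers of other blood cells moved too: 4 mast cell markers summed to 545 to 586 CPM without E2 and to 91.8 to 107 CPM with it, mostly from Kit. Of 5 megakaryocyte markers Gp1bb was at 0 throughout, and the sum was 75.1 to 90.7 CPM without E2 and 37.2 to 43.8 CPM with it. Most of that sum was Nbeal2, at 65.4 to 81.2 CPM without E2 and 22.7 to 29.35 CPM with it. The other megakaryocyte markers were too low to be tested, and the fall in the sum was that of Nbeal2. Of 5 granulocyte and macrophage markers Elane, Csf1r and Ly6g were at 0 throughout, and the sum was 16.3 to 23.3 CPM without E2 and 1.57 to 3.29 CPM with it. Without E2 that sum was Coro1a alone, as Mpo was at 0 there too. For 4 lymphoid markers the sum was at most 1.23 CPM and for 4 muscle and neuron markers at most 1.26 CPM. The part of these markers' cells in the results on the membrane skeleton was not tested.

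The region upstream of 4 members is shown as background, since E2 activates a factor that binds GATA sites. Each line gives the 250 bases before a RefSeq transcription start (GRCm38.p6), read in the gene's direction, from chr12:76710548-76710797 on the minus strand (Sptb), chr5:34573414-34573663 (Add1), chr6:86028431-86028680 (Add2) and chr19:53143747-53143996 (the third of 3 Add3 starts), the last 3 on the plus strand. Capitals mark every match on either strand to the GATA motif (AGATAA or TGATAA) or to CCNCNCCC, a motif of the kind bound by erythroid Krüppel-like factor, and overlapping matches run together.
Sptb: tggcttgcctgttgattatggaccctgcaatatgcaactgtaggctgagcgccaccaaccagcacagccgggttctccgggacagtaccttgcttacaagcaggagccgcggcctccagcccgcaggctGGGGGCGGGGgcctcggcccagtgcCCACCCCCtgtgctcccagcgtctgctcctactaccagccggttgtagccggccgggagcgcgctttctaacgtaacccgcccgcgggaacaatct
Add1: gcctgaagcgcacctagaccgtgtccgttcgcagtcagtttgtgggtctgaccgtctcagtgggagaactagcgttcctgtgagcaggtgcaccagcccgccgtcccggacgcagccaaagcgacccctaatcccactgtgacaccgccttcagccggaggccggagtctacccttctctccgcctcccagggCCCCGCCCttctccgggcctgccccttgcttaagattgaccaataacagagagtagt
Add2: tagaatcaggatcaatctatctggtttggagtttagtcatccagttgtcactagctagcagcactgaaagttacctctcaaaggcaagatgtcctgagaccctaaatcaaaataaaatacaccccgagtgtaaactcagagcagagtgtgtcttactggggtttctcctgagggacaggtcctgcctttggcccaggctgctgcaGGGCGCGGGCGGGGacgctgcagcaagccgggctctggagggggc
Add3: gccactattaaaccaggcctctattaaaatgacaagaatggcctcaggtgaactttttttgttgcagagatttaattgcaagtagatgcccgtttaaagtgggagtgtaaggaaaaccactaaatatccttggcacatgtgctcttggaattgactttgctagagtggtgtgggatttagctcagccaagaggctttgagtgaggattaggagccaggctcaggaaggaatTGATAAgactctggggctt
CCNCNCCC matched 3 times in the Sptb window, once in that of Add1 and 2 times in that of Add2, while the GATA motif matched once, in the Add3 window. The windows of the other 2 Add3 starts, not printed, held 7 and 4 matches to CCNCNCCC and 0 to the GATA motif. The Tmod1 window, also not printed, held 4 and 0. Of 32841 windows of this length in the table, 16.6% held the GATA motif and 45.9% held CCNCNCCC. These matches describe letters in the windows and say nothing of binding. The promoter table did not match Ank1, Dmtn and Slc4a1.

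Sptb, Ank1 and the adducin genes, the 5 members that passed the filter on low values in each of the 12 libraries, were higher in E2 than in Ctrl by edgeR's quasi-likelihood test (adjusted p under 0.05, here and below). Of the 8273 genes tested, 41.5% were called higher in that comparison. The same 5 were higher in TMG_E2 than in TMG, where 40.9% of all genes were. Dmtn, Tmod1 and Slc4a1 passed the filter only through the 6 libraries with E2 and so had to differ, and their E2 responses are given as levels and ratios of counts, with no test. The median log2 change of the first 5 members in E2 against Ctrl was 1.96, beside -0.00 over all genes tested. TMG without E2 changed 2 members, with Sptb higher (3.01% of all genes were called higher) and Add2 lower (2.14% were called lower). TMG on top of E2 changed 3 members, with Add1 higher (5.61% of all genes) and Dmtn and Slc4a1 lower (7.14% of all genes). The interaction, the response to TMG with E2 less that without it, was called for Sptb and Add2, while 0.931% of all genes were called in either direction. These comparisons share groups, so that each is given with its own values. Erythroid markers moved with TMG alone too: 3 of 6 were called higher and 0 lower, among them Alas2, the first enzyme of heme synthesis in red cells, at 1.70, 2.27 and 2.53 CPM in Ctrl and 4.22, 5.00 and 3.92 CPM with TMG (2.02-fold, edgeR adjusted p = 0.000488). Hbb-bs was 1.64-fold higher (edgeR adjusted p = 0.000446). Of the 4 mast cell markers, Cpa3 (0.548 of its Ctrl level, edgeR adjusted p = 0.0420) and Ms4a2 (0.641, edgeR adjusted p = 0.0491) were lower. Il1rl1 (1.19-fold, edgeR adjusted p = 0.0657) and Kit (1.01-fold, edgeR adjusted p = 0.893) did not pass the test. The sum of the 4 was 545.3 to 585.5 CPM in Ctrl and 551.4 to 583.4 CPM with TMG, so the mast cell list as a whole did not fall. With E2 present, TMG raised 1 of the 6 erythroid markers, Alas2 (1.11-fold, edgeR adjusted p = 0.0281). The part of these shifts in the members' responses to TMG was not tested.

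**Figure D1:**
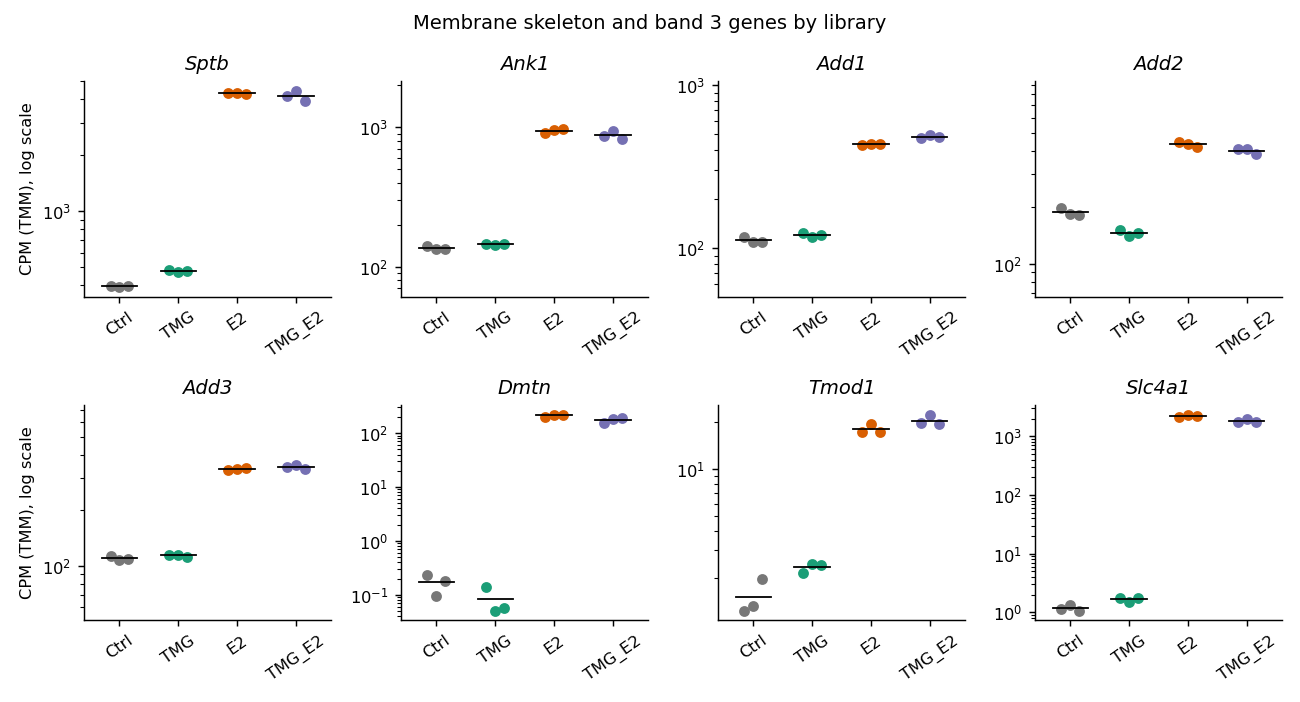
Level of each membrane skeleton and band 3 gene in CPM scaled by TMM (log axis, own range per panel) in the 3 libraries of each group, with points for libraries and bars for group means. For Sptb, Ank1 and the adducin genes the E2 and TMG_E2 libraries lie above all Ctrl and TMG libraries. Of all genes tested, 41.5% were called higher in E2 than in Ctrl, and the share with no overlap was not counted. Dmtn, Tmod1 and Slc4a1 passed the filter only through the libraries with E2. Their gaps, widest for Dmtn and Slc4a1, therefore had to appear.

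Sptb, the beta spectrin chain of red cells, lies on chromosome 12 from 76580488 to 76710547 (positions here and below from RefSeq on GRCm38.p6, the files' build being GRCm38). Its level was 396, 392 and 395 CPM in the Ctrl libraries and 481, 470 and 477 CPM with TMG. It was 4325, 4331 and 4285 CPM with E2 and 4159, 4440 and 3904 CPM with both. The Ctrl and TMG libraries did not overlap, while the E2 values lay inside the wider range of TMG_E2. E2 raised Sptb 10.9-fold, a log2 change of 3.45 ± 0.05 (SE, n = 3 per group, edgeR adjusted p = 1.15e-19), and the log2 change was 3.13 ± 0.05 where TMG was present. TMG alone raised it 1.21-fold (log2 change 0.27 ± 0.04, edgeR adjusted p = 0.00127). With E2 the log2 change with TMG was -0.05, with a 95% interval from -0.14 to 0.04 (edgeR adjusted p = 0.469).

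Ank1, the ankyrin of red cells, lies on chromosome 8 from 22974836 to 23150501. It was at 141, 134 and 134 CPM in Ctrl, 146, 144 and 145 CPM with TMG, 913, 952 and 972 CPM with E2 and 872, 942 and 828 CPM with both. E2 raised it 6.93-fold without TMG (log2 change 2.79 ± 0.05, edgeR adjusted p = 1.75e-18) and 6.08-fold with TMG. All TMG libraries stood above all Ctrl libraries, but the log2 change of 0.09 (95% interval -0.01 to 0.18) did not pass the test (edgeR adjusted p = 0.339). With E2 the groups overlapped and the log2 change with TMG was -0.10 (95% interval -0.19 to -0.01, edgeR adjusted p = 0.124). This value was -0.15 (adjusted p = 0.0247) without replicate 2 of TMG_E2, the highest library of its group, and the adjusted p of the 13 alternatives ran from there to 0.320.

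Slc4a1 encodes band 3 and lies on chromosome 11 from 102348820 to 102365281. Without E2 its level was low, at 1.14, 1.32 and 1.07 CPM in Ctrl and 1.75, 1.48 and 1.74 CPM with TMG, from 24 to 37 counts per library. With E2 it was at 2123, 2339 and 2215 CPM, and with both at 1720, 1990 and 1757 CPM. From the summed counts, scaled by library size and TMM, Slc4a1 was 1906 times higher in E2 than in Ctrl (95% interval 1523 to 2419, counting error only). It was 1098 times higher in TMG_E2 than in TMG (900.2 to 1354). On the fitted scale the log2 change with E2 was 10.88 without TMG and 10.10 in its presence. TMG lowered Slc4a1 in cells given E2 to 0.819 of its level, with no overlap between the groups (log2 change -0.29 ± 0.05, edgeR adjusted p = 0.00144). In cells without E2 the TMG libraries stood above the Ctrl libraries, and the log2 change of 0.50 ± 0.24 did not pass the test (edgeR adjusted p = 0.278).

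Dmtn, the gene of dematin, lies on chromosome 14 from 70602184 to 70636048. The Ctrl libraries held 5, 2 and 3.62 expected counts and the TMG libraries 3, 1 and 1. With E2 it was at 200, 221 and 219 CPM, and with both at 157, 180 and 188 CPM. From the summed counts, scaled by library size and TMM, Dmtn was 1264 times higher in E2 than in Ctrl (95% interval 706 to 2533, counting error only). It was 2032 times higher in TMG_E2 than in TMG (870 to 6259). The intervals of these ratios overlap. On the fitted scale the log2 change of Dmtn with E2 was 10.25 without TMG and 10.90 with it. The 3 TMG_E2 libraries all lay below the 3 E2 libraries, and the log2 change of -0.29 ± 0.06 passed the test (edgeR adjusted p = 0.00354), which set Dmtn at 0.818 of its level without TMG. Without E2 the counts were few: the ratio of summed counts in TMG to Ctrl, scaled in the same way, was 0.504, with an interval from 0.137 to 1.57.

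Tmod1, tropomodulin, lies on chromosome 4 from 46038940 to 46116032. It was at 1.23, 1.32 and 1.96 CPM in Ctrl, 2.13, 2.45 and 2.41 CPM with TMG, 17.4, 19.4 and 17.3 CPM with E2 and 19.8, 22.5 and 19.5 CPM with both. From the summed counts, scaled by library size and TMM, Tmod1 was 11.98 times higher in E2 than in Ctrl (95% interval 9.74 to 14.9, counting error only). It was 8.85 times higher in TMG_E2 than in TMG (7.41 to 10.7). The TMG libraries stood above those without TMG in both backgrounds. Neither difference passed the test, at a log2 change of 0.62 ± 0.18 without E2 (edgeR adjusted p = 0.0638) and 0.19 ± 0.09 with it (0.189). Without replicate 3 of Ctrl, the highest Ctrl library, the change without E2 was 0.86 (adjusted p = 0.0239), and it passed in 3 of 12 alternatives (adjusted p up to 0.226).

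The adducin genes encode the alpha (Add1), beta (Add2) and gamma (Add3) subunits, of which red cells use mainly alpha and beta. Add1, on chromosome 5 from 34573664 to 34632308, was at 117, 108.5 and 108.5 CPM in Ctrl, 123, 116 and 120 CPM with TMG, 430, 436 and 437 CPM with E2 and 476, 491 and 480 CPM with both. Add2, on chromosome 6 from 86028681 to 86124409, was at 198, 185 and 182 CPM in Ctrl and 151, 142 and 145 CPM with TMG. With E2 it was at 445, 434 and 422 CPM, and with both at 410, 407 and 385 CPM. In both backgrounds every library with TMG had less Add2 than every library without it. Add3, on chromosome 19 from 53140443 to 53247326, was at 113, 108 and 110 CPM in Ctrl and 115, 115 and 112 CPM with TMG. It was at 330, 337 and 337 CPM with E2 and 344, 351 and 334 CPM with both, and its ranges with and without TMG overlapped.

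E2 raised the adducin genes by unlike amounts: Add1 3.90-fold, Add3 3.04-fold and Add2 2.30-fold (log2 changes 1.96 ± 0.04, 1.60 ± 0.03 and 1.20 ± 0.04, the largest edgeR adjusted p being 1.99e-14 for Add2). In the presence of TMG the log2 changes were 2.01 for Add1, 1.59 for Add3 and 1.46 for Add2. TMG alone lowered Add2 to 0.776 of its level (log2 change -0.37 ± 0.04, edgeR adjusted p = 8.33e-05). This change ranked 57 from the lowest among the 8273 genes tested. With E2 the log2 change of Add2 with TMG was -0.11 ± 0.04 and did not pass the test (edgeR adjusted p = 0.0737), but passed it with the replicate number as a block (adjusted p = 0.0188, the lowest of 13 alternatives that reached 0.241). Add1 was raised 1.11-fold by TMG in cells given E2 (log2 change 0.15 ± 0.04, edgeR adjusted p = 0.0103), a call lost when only the E2 and TMG_E2 libraries entered the fit (adjusted p = 0.0549) and kept in 12 of 13 alternatives (adjusted p from 0.000457). Without E2 its change was 0.11, with a 95% interval from 0.03 to 0.19 (edgeR adjusted p = 0.124). The log2 changes of Add3 with TMG were 0.05 (95% interval -0.03 to 0.12) without E2 and 0.04 (-0.03 to 0.10) with it.

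**Figure D2:**
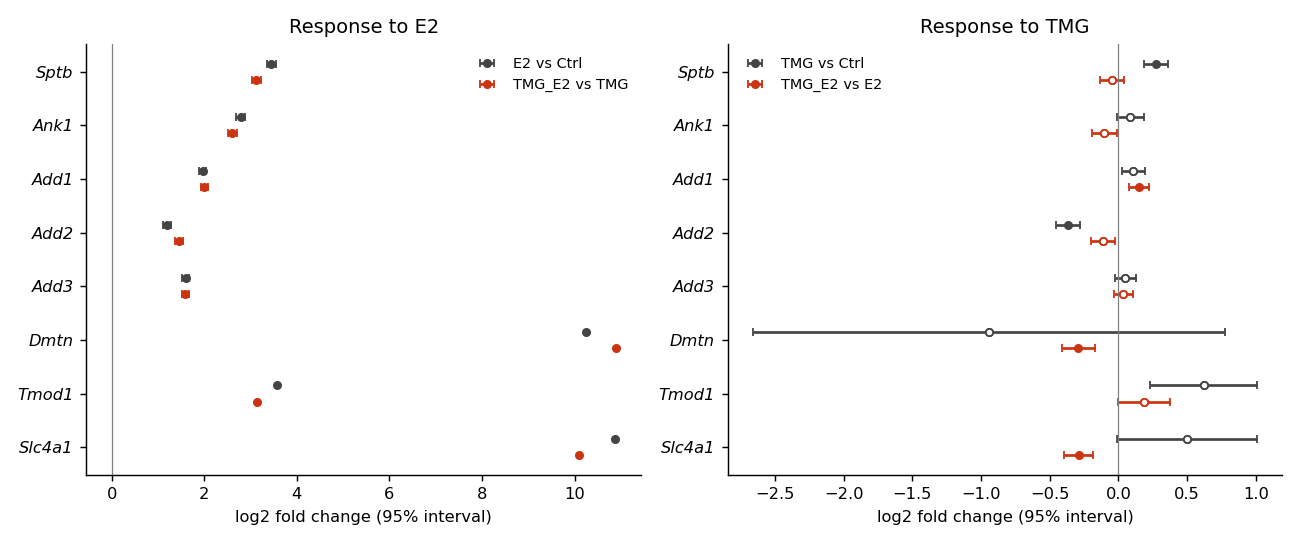
Log2 fold changes with 95% intervals for the response to E2 (left, without and with TMG) and to TMG (right, without and with E2), with filled points for changes that passed the test and open points for those that did not. The E2 responses of Dmtn, Tmod1 and Slc4a1, each with a mean under 3 CPM without E2, have no interval. Their points on the left stand for no test result, whatever their fill, because the filter obliged these genes to differ. The E2 responses run from 1.20 (Add2) to 10.90 (Dmtn), while the called TMG responses lie between -0.37 and 0.27.

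The relative abundance of the adducin genes differed between groups. TPM values, which are scaled for transcript length, were summed over the 3 genes and each gene was expressed as a share of the sum. Add1 held 31.6%, 31.2% and 31.0% in the Ctrl libraries, 37.9%, 36.2% and 35.5% with TMG, 43.2%, 43.7% and 42.7% with E2 and 46.5%, 46.4% and 47.6% with both. Add2 held 44.3%, 43.7% and 43.7% in Ctrl, 35.7%, 35.3% and 36.9% with TMG, 31.8%, 30.9% and 31.4% with E2 and 28.3%, 28.0% and 27.3% with both. Add2 was thus the leading adducin gene in Ctrl and Add1 the leading one in both E2 groups. The share of Add1 was 11.1 percentage points higher with E2 and 4.47 points higher with TMG, while the differences for Add2 were -10.3 points with E2 and -5.74 points with TMG. Each of these 4 differences had p = 0.005, the smallest that the exact two-sided permutation test within strata allows (adjusted p = 0.0075 over 6 tests). With labels exchanged only within a replicate number their adjusted p was 0.0469. The 3 shares of a library add up to the whole, so the Add1 and Add2 differences are not independent results. In TMG vs Ctrl the level of Add2 was lower (log2 change -0.37), while that of Add1 did not pass (0.11, edgeR adjusted p = 0.124). The share of Add3 stayed between 24.1% and 28.4%, with differences of -0.83 points for E2 (exact permutation p = 0.20) and 1.27 points for TMG (exact permutation p = 0.07, adjusted p = 0.084). The TMG difference of Add3 passed without replicate 3 of E2 (1.39 points, adjusted p = 0.042) and from counts with no length scaling (1.63 points, adjusted p = 0.048), and in none of the other 12 alternatives (adjusted p up to 0.1875).

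**Figure D3:**
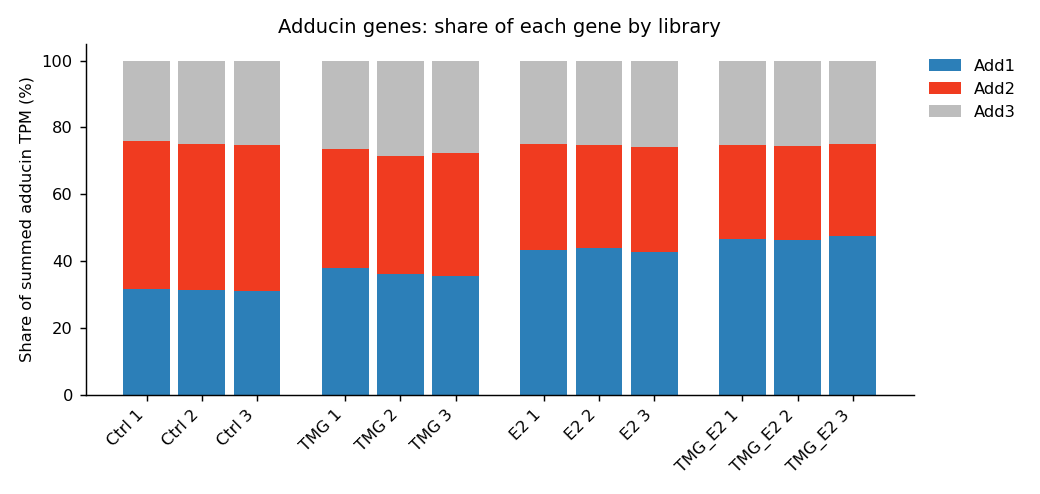
Share of the summed adducin TPM held by Add1, Add2 and Add3 in each of the 12 libraries, as stacked bars from 0 to 100%. The Add2 segment shrinks from 43.7% to 44.3% in Ctrl to 27.3% to 28.3% in TMG_E2, and the Add3 segment stays between 24.1% and 28.4%.

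Per transcript length, the order of the 8 genes changed with E2. In Ctrl, Add2 (73.4 ± 4.7 TPM, SD, n = 3) and Sptb (73.2 ± 0.9 TPM) overlapped at the top, followed by Add1 (52.2 TPM), Add3 (41.5 TPM) and Ank1 (31.4 TPM), with Tmod1 (0.87 TPM), Slc4a1 (0.42 TPM) and Dmtn (0.067 TPM) far below. With TMG alone Sptb led at 85.7 ± 1.9 TPM, apart from Add1 (55.5 TPM) and Add2 (54.6 TPM), which overlapped. With E2, Sptb (700.4 ± 7.4 TPM) and Slc4a1 (697 ± 29 TPM) overlapped at the top, and Ank1 (191 TPM) overlapped Add1 (189 TPM). Add2 (137 TPM), Add3 (111 TPM), Dmtn (77.1 TPM) and Tmod1 (9.34 TPM) followed, each apart from the next. With both agents Sptb (661 ± 62 TPM) and Slc4a1 (557.5 ± 52.2 TPM) still overlapped, as did Add2 (123 TPM) and Add3 (111 TPM), while Add1 (206 TPM) stood apart from Ank1 (177 TPM). Together the 8 genes made up 0.0273% ± 0.0011 of all TPM in Ctrl, 0.0273% ± 0.0009 with TMG, 0.211% ± 0.003 with E2 and 0.191% ± 0.014 with both.

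The ratios between binding partners moved as well. The TPM ratio of Sptb to Ank1 was 2.33 ± 0.04 in Ctrl, 2.60 ± 0.08 with TMG, 3.66 ± 0.14 with E2 and 3.74 ± 0.08 with both (SD, n = 3). The ratio of Slc4a1 to Ank1 was 0.0134 ± 0.0017 in Ctrl and 0.0175 ± 0.0019 with TMG, against 3.64 ± 0.14 with E2 and 3.15 ± 0.11 with both. Every library with E2 lay above every library without it in both ratios. These ratios are descriptions, without a test of their own.

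The response to TMG differed with E2 for 2 members. For Sptb the interaction was -0.32 ± 0.06 on the log2 scale (edgeR adjusted p = 0.0201), from 0.27 without E2 to -0.05 with it. This call was lost when any Ctrl or E2 library, or replicate 1 or 2 of TMG, was left out (8 of 12, adjusted p 0.0504 to 0.07315), and over all 18 alternatives the adjusted p started at 5.51e-05. For Add2 it was 0.25 ± 0.06 (edgeR adjusted p = 0.0482), from -0.37 without E2 to -0.11 with it. Leaving out any library except replicate 3 of TMG_E2 ended this call (11 of 12, adjusted p 0.0547 to 0.154), as did scaling by library size alone (adjusted p = 0.0758) and another filter, filterByExpr (adjusted p = 0.0550), while 5 of 18 alternatives passed (adjusted p from 0.00472). For Slc4a1 the interaction was -0.79 ± 0.25 (edgeR adjusted p = 0.173), which passed with the replicate number as a block (adjusted p = 0.0439) and with no filter (adjusted p = 0.0463) but in none of the other 16 alternatives (adjusted p up to 0.384). The interactions of Ank1 (-0.19 ± 0.06, adjusted p = 0.209) and Tmod1 (-0.43 ± 0.21, adjusted p = 0.454) did not pass edgeR's test. Nor did those of Add1 (0.04 ± 0.05), Add3 (-0.01 ± 0.05) and Dmtn (0.65 ± 0.80).

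The files also give, for each gene and library, the mean length of its annotated transcripts weighted by their estimated abundance, which moves when the mix of isoforms moves. Slc4a1 has a single annotated transcript in the files, and Dmtn had too few counts without E2, which leaves 6 members and 12 tests. For Add2, with 8 annotated transcripts, the mean length was 4139, 4283 and 4170 bases in Ctrl and 4226, 4289 and 4203 bases with TMG. It was 4541, 4527 and 4424 bases with E2 and 4567, 4530 and 4541 bases with both, so that every library with E2 lay above every library without it. The difference with E2 was 303 bases (exact permutation p = 0.005, adjusted p = 0.02). Add3 went the other way, from a mean of 4335 bases without E2 to 4300.0 bases with it, with no overlap (-35.3 bases, exact permutation p = 0.005, adjusted p = 0.02). Add1 was 179 bases shorter with E2, at 3315 against 3495 bases (exact permutation p = 0.02, adjusted p = 0.048), but its ranges overlapped and 8 of 12 fits without 1 library did not pass. Leaving out any Ctrl library, replicate 3 of TMG, replicate 1 or 2 of E2, or replicate 1 or 3 of TMG_E2 did so, with adjusted p from 0.06 to 0.096 and differences from -194.6 to -134.8 bases.

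For Sptb, with 2 annotated transcripts, the difference was 3.55 bases of a mean near 8612 in the libraries without E2 (exact permutation p = 0.005, adjusted p = 0.02). Tmod1 was listed at 2871 bases in each library without E2, on 25.5 to 47.8 counts, and in replicate 1 of E2, and at 2768 to 2807 bases in the other 5 libraries with E2 (exact permutation p = 0.02, adjusted p = 0.048). The Tmod1 difference of -68.8 bases did not pass (adjusted p = 0.06) without any 1 of the Ctrl libraries, replicate 3 of TMG, replicate 2 of E2 or replicates 1 or 3 of TMG_E2. Without a Ctrl library or replicate 3 of TMG the difference itself stayed at -68.8 bases, and the permutation test had fewer arrangements. Ank1, with 11 annotated transcripts, showed no called difference with E2 (-23.3 bases, exact permutation p = 0.655). When labels were exchanged only within a replicate number, the block that the E2 comparisons share, none of these 5 differences passed (adjusted p = 0.0625, and 0.107 for Tmod1), where the smallest unadjusted p that design allows is 0.03125. No difference with TMG passed, the nearest being Ank1 at -125 bases (exact permutation p = 0.06, adjusted p = 0.12). Without replicate 1 of TMG it was -164.6 bases (adjusted p = 0.012), and the Add3 difference of -5.43 bases with TMG became -6.80 (adjusted p = 0.03) without replicate 2 of TMG_E2.

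**Figure D4:**
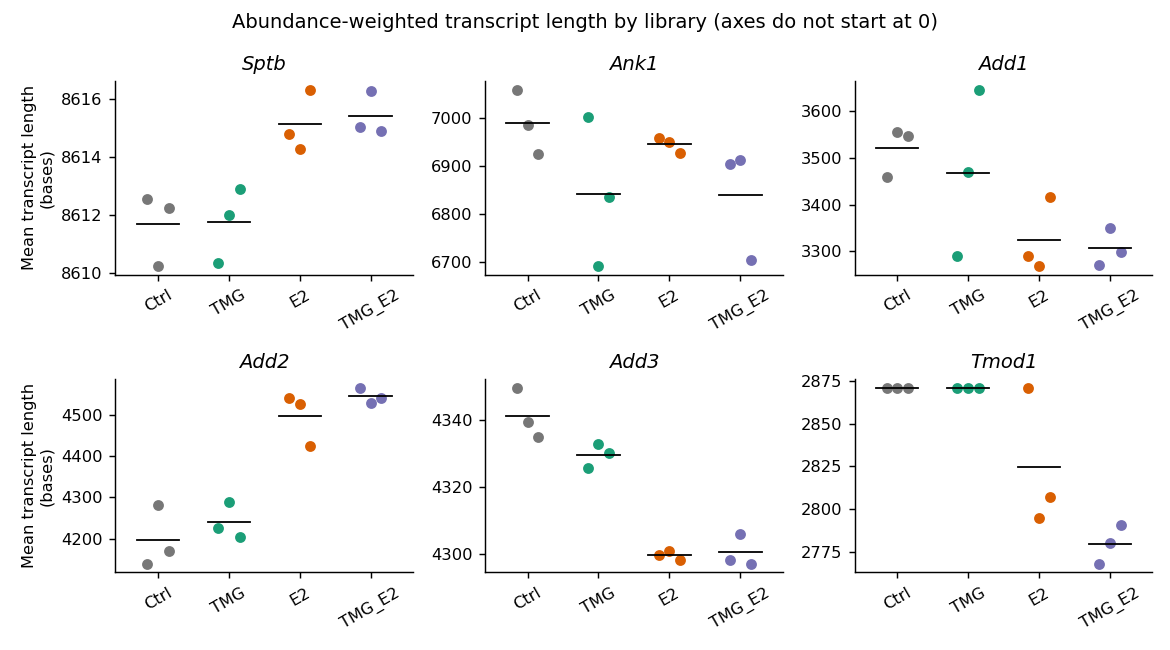
Mean transcript length in bases, weighted by estimated isoform abundance, for the 6 members with more than 1 annotated transcript and at least 10 counts per library, with points for libraries and bars for group means (the axes do not start at 0). Add2 is longer and Add3 shorter in all libraries with E2 than in all without it, whereas the Ank1 groups overlap.

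Around the 8 genes, a list of 44 other genes of the skeleton, its anchors and its paralogs was examined, of which 26 passed the filter. E2 raised 15 of these and lowered 8, where 41.5% of all genes tested were called higher and 41.2% lower, with a median log2 change of 0.44 beside -0.00 over all genes tested. The 8 and the median include Sptan1, whose fall the filter fixed in advance. Among the spectrins, Sptbn1, a chain of other cell types, was lowered (log2 change -1.24). Sptan1, another such chain, passed the filter only through the libraries without E2 and so had to differ. Its levels, given with no test, were 10.7 to 14.1 CPM without E2 and 0.225 to 0.672 CPM with it. On the fitted scale its log2 change was -4.98. The TPM ratio of Sptb to Sptbn1 was accordingly 8.72 ± 0.49 in Ctrl and 226.5 ± 17.0 with E2. Of the 10 genes of the ankyrin and band 3 complex, 9 passed the filter and 8 of these rose, among them Kel, a blood group protein of the red cell surface (log2 change 3.46 ± 0.06), while the glucose transporter Slc2a1 did not pass the test (0.18, edgeR adjusted p = 0.196). Epb42, whose protein binds band 3, did not pass the filter, with 23 to 56 counts per library and 1.32, 2.34, 1.495 and 1.88 mean CPM in Ctrl, TMG, E2 and TMG_E2.

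At the actin junction 10 of 13 genes passed the filter, of which 5 rose and 4 fell with E2, shares near those of all genes tested. They ran from Mpp1, a membrane scaffold protein (log2 change 1.94 ± 0.04), to the cytoplasmic actin Actg1 (-1.41 ± 0.06). Ank2, the ankyrin paralog that passed the filter, rose (1.01 ± 0.05), and Ank3 was listed at 0 in every library; whether this reflects the annotation used upstream cannot be told from the files. Of 6 paralogs of Epb41, Epb41l5 passed the filter and fell (-0.74 ± 0.04). Of 9 relatives of band 3, 2 passed the filter: Slc4a7, a sodium bicarbonate cotransporter, fell (-0.36 ± 0.05), and the anion exchanger Slc4a2 did not pass the test (-0.01, edgeR adjusted p = 0.832). Slc4a2 was at 26.1 to 28.0 CPM in Ctrl and 26.7 to 27.1 CPM with E2, so that the TPM ratio of Slc4a1 to Slc4a2 was 0.0396 ± 0.0042 in Ctrl and 75.9 ± 4.2 with E2.

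**Figure D5:**
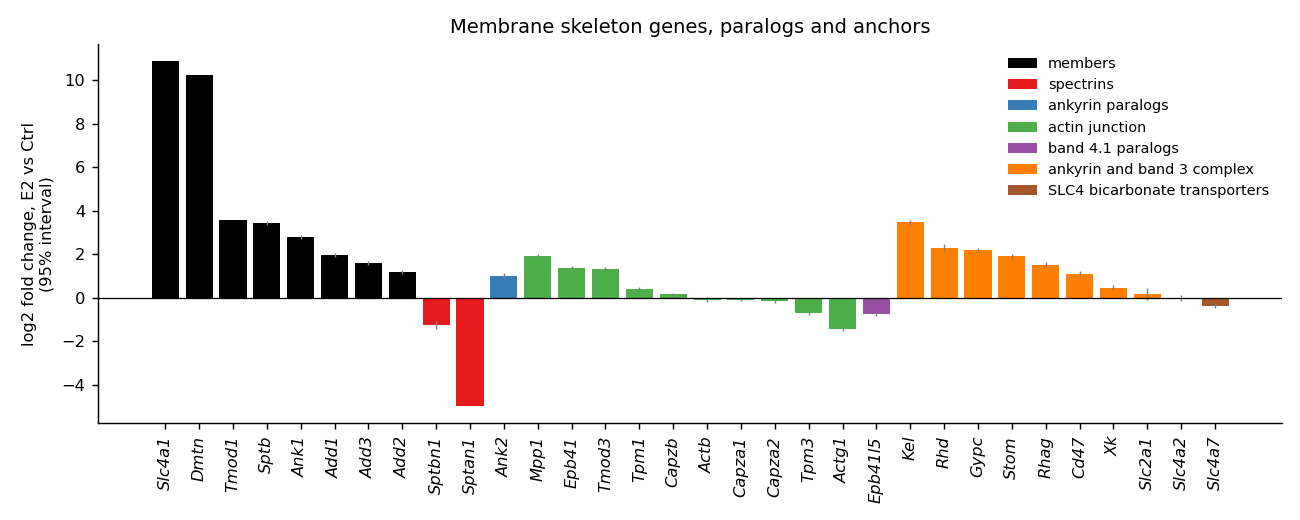
Log2 fold change of E2 against Ctrl with 95% intervals for the 8 members (black) and 24 of the other listed genes that passed the filter, coloured by role and sorted within it. No interval is drawn for Dmtn, Tmod1, Slc4a1 and Sptan1, each with a group mean under 3 CPM. Their bars stand for no test result, because the filter obliged these genes to differ. Bars above 0 are higher with E2, and Sptan1 at -4.98 and Slc4a1 at 10.88 mark the ends of the range.

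TMG without E2 raised 5 of the 26 listed genes and lowered 1, where 3.01% of all genes tested were called higher and 2.14% lower. Among those raised were Kel (22.7, 22.5 and 21.8 CPM in Ctrl, 36.9, 33.5 and 32.9 CPM with TMG, log2 change 0.63 ± 0.07), the Rh-associated glycoprotein Rhag (0.18 ± 0.05) and Epb41, which strengthens the spectrin-actin link (0.15 ± 0.04). Actg1 was lowered, from 158.5, 176 and 179 CPM in Ctrl to 109, 111 and 124 CPM with TMG (log2 change -0.58 ± 0.06, edgeR adjusted p = 1.64e-05). The groups did not overlap for Kel or Actg1. The calls of Epb41 and Rhag were lost in 6 and 5 of 6 fits without 1 library (adjusted p up to 0.135 and 0.139) and with library size alone (0.0610 and 0.0609). In cells given E2, TMG raised Sptbn1 (0.39 ± 0.09) and Mpp1 (0.23 ± 0.04) and lowered Ank2 (-0.35 ± 0.05) and Actg1 (-0.30 ± 0.06), and 22 of the 26 genes did not pass the test. Of all genes tested, 5.61% were called higher and 7.14% lower in that comparison.

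The genes most like each member over the 12 libraries were found from the root mean square difference of log2 CPM after each gene was centred on its mean. All of them share the large step between libraries without and with E2. Nearest to Ank1 was Crebl2 (0.04), nearest to Add1 was Mpp1 (0.05), nearest to Add2 was Chst11 (0.08) and nearest to Add3 was Tmx1 (0.04), followed by Fech, the last enzyme of heme synthesis (0.04). Sptb (0.11) and Tmod1 (0.19) were both nearest to 1810058I24Rik. Slc4a1 and Dmtn were nearest to the beta globin gene Hbb-bs (0.40 and 0.50) and next to each other (0.54). Among the members, Add1 and Add3 differed by 0.20, Add2 and Add3 by 0.21, and Sptb and Tmod1 by 0.21.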

How the data were processed

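Poly(A) RNA of 12 libraries was sequenced with a stranded kit and read pairs, per the labels' protocols. Per the series design text and the submitters' processing notes, the tools were FastQC 0.11.2 for read quality and RSEM 1.2.22 for quantification on GRCm38, and Bowtie2 is named too. The deposited expected counts are the authors' RSEM estimates, which need not be whole, and in the deposited TPM values the authors' software has corrected for transcript length and library size. The authors compared groups with edgeR 3.14.0 in R 3.2.2. The strand setting of RSEM is not given in these sources.

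Expected counts were rounded and fitted with edgeR 4.0.16 in R 4.3.3: genes over 10 CPM in at least 2 of 12 libraries (8273), TMM scaling, 1 quasi-likelihood fit with 4 group means, 5 comparisons, and Benjamini-Hochberg adjustment over all genes kept. SEs came from the F statistic, which understates the error of a large change from few counts. For Dmtn, Slc4a1 and Tmod1, ratios of summed counts, scaled by library size and TMM, with exact intervals stand in for the SE of the E2 response. The CPM values are scaled by TMM. Shares and lengths were tested by exact permutation within strata (400 arrangements, scripts in Python 3.11.15). The fits and permutations were tested on simulated data. Alternatives were scaling (RLE, library size alone), filters, DESeq2 1.42.0, only the groups compared, leaving out each library, and the replicate number as a block. The members, the list of 44 genes and the markers were chosen with earlier results of these data known. Named from the list were, by role, the called genes with the highest and lowest change with E2 and every gene called in a TMG comparison or the interaction; Slc2a1, Slc4a2, Epb42, Ank3 and Sptan1 are also named where a ratio or a count turns on them. Some genes of the lists are not reported here, though the counts include them.

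Replicates of a group differed by more than sampling noise (chi-square over its degrees of freedom, 2.41 to 13.15, with TMG_E2 highest). Libraries with the same number deviated together from their group means, with correlations of 0.108 to 0.278 in E2 vs Ctrl, 0.182 to 0.285 in TMG_E2 vs E2 and 0.149 to 0.525 in TMG_E2 vs TMG. There the numbers were taken as pairs, on the data alone and with no test of the correlations, and the block is an alternative to the main fit.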

Additional observations from a re-analysis of the deposited data

Results flagged for a closer look

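For 4 genes among the 8 members and the 26 listed genes tested, the response to TMG with E2 differed from the response without it by the interaction term of edgeR's fit. Of all genes tested, 0.931% were called in either direction. For Sptb the difference was -0.32 on the log2 scale, as TMG raised it without E2 and its change with E2 did not pass the test. In 8 of 18 alternatives the Sptb difference did not pass (adjusted p up to 0.07315). For Add2 the difference was 0.25, as TMG lowered it without E2 and its change with E2 did not pass the test. In 13 of 18 alternatives the Add2 difference did not pass (adjusted p up to 0.154). For Kel the difference was -0.50, from a log2 change of 0.63 without E2 to 0.12 with it, and it passed the test under each of 18 alternatives (adjusted p up to 0.0490). For the ankyrin paralog Ank2 the difference was -0.35, from -0.00 without E2 to -0.35 with it, and 13 of 18 alternatives did not pass (adjusted p up to 0.123).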

How the results depend on the processing

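In E2 vs Ctrl and TMG_E2 vs TMG, Sptb, Ank1 and the adducin genes stayed higher under each of 13 alternatives. In TMG vs Ctrl, Sptb stayed higher and Add2 lower under each of 13. The count of genes called in TMG vs Ctrl (426) was 675 with the replicate block, 749 with only the groups compared and 196 to 257 without 1 library; members called higher (1) became 2 with the block and with no filter (Tmod1), and 1 to 2 without 1 library. The same-number correlations in TMG vs Ctrl were 0.088, 0.030 and 0.188, a range that overlaps the 0.108 to 0.278 of E2 vs Ctrl. Whether the numbers pair the libraries there was not tested. In TMG_E2 vs E2, Dmtn and Slc4a1 stayed lower under each of 13 alternatives. There 1055 genes were called, 472 with only the groups compared and 656 to 1160 without 1 library; members called higher (1) became 0 with only the groups compared. For the interaction, 77 genes were called, 171 with the replicate block, 178 with no filter, 48 with filterByExpr and 18 to 161 without 1 library. Members called lower (1) became 2 with the block and with no filter, and 0 to 1 without 1 library; members called higher (1) became 0 with library size alone and with filterByExpr, and 0 to 1 without 1 library. The Add3 interaction lay between -0.0387 and 0.0056 without 1 library. Scaling by library size alone shifted the median of all genes by -0.098 (log2) in E2 vs Ctrl and changed no member's direction.

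The Add3 share difference with TMG was 1.63 points from counts and 1.03 to 1.54 without 1 library. With the replicate block the length differences with E2 kept their values (Sptb 3.55, Add1 -179, Add2 303, Add3 -35.3 and Tmod1 -68.8 bases) and did not pass. The few arrangements of that block cannot decide on them over 12 tests. Without 1 library, the E2 differences ran from -60.8 to 16.1 bases for Ank1, -223.7 to -134.8 for Add1 and -80.5 to -61.5 for Tmod1, and the TMG differences from -0.19 to 0.52 for Sptb, -164.6 to -87.8 for Ank1, -79.9 to 9.03 for Add1 and -7.03 to -3.32 for Add3. The cause of these changes was not tested. The replicate block changed no other member's call in these comparisons beside those given with their values. Depth limits Dmtn, Slc4a1 and Tmod1 without E2.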
